A study of Mus musculus with 8 samples.

Results

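Choroid plexus epithelial cells were found in 7 of 8 brain libraries by their transthyretin mRNA: a cell was taken when at least 300 of every 10,000 of its UMIs (unique molecular identifiers, each standing for 1 captured mRNA molecule) were Ttr and when at least 2 of Kcnj13, Enpp2, Kl, Sostdc1, Prlr and Trpm3 were detected. This gave 120 cells out of 7861, or 1.53% of all cells with at least 500 genes among the 1000 barcodes with most UMIs in each library. The levels of these 7 genes chose the cells, so they are given as a description, no test of them is reported, and they are left out of the counts of tested genes per list. The study sequenced brain cells of C57BL/6 mice (C57BL/6N in the study's methods) by Drop-seq, a droplet method that reads the 3′ end of each mRNA, and compared Irg1/Acod1 +/+ (wild type, WT) with Irg1/Acod1 -/- mice (knock-out, KO). Naive mice carried no tumour, and the other mice had received 500 cells of GL261, a mouse glioma line, in 1 μl and were taken at an early (5 to 10 mm3), intermediate (20 to 25 mm3) or late (30 to 35 mm3) tumour volume. Each of the 8 groups is 1 library. The title of each naive library names 2 mice and that of each tumour-bearing library 1 mouse, so a p-value below measures the spread between these libraries. In the tests of single genes, that spread is mostly estimated over all genes together. Per the study's methods, the tumour core region was taken from tumour-bearing brains, with no such region named for naive brains, and the tumour and the tissue taken therefore cannot be told apart. By the same methods, the WT early and KO intermediate mice were female and the other tumour-bearing mice male. Ages are not given in the sources used here.

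The choroid plexus is a frond of capillaries that hangs in the brain ventricles and is covered by a single layer of epithelium. This epithelium secretes the cerebrospinal fluid (CSF), moving sodium, chloride, bicarbonate and water from blood to ventricle, and forms the blood-CSF barrier with its tight junctions. It makes transthyretin, the carrier of thyroxine and of the retinol-binding protein complex. Acod1 encodes the enzyme that makes itaconate and is known mainly from activated myeloid cells.

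The tables held between 2885345 and 9950713 UMIs per library, and the cells outside the epithelium had a median of 1587 to 5638 UMIs. Acod1 had 0 UMIs in the 120 epithelial cells. In all other cells together, Acod1 had 185 UMIs in the WT early, 21 in the WT intermediate and 14 in the WT late library, against 38, 28 and 43 UMIs in the KO libraries of the same stages, and 0 in both naive libraries. The KO allele carries a cassette between exons 3 and 5, and 3′ reads can lie beyond it, so these counts do not check the genotype labels. Xist had 1567 UMIs in the WT early and 932 UMIs in the KO intermediate library and at most 5 in each of the others, outside the epithelial cells. Of the barcodes of epithelial cells, 6 had more than 20,000 UMIs and held 43.1% of all 620902 UMIs of the 120 cells. Further, 19 of the 120 barcodes differed by 1 base from another cell barcode of the same library, and these linked barcodes can be 1 bead read under several sequences. Counted once, the 120 barcodes formed 107 units. Linked barcodes made up 31.7% of all cells, between 4.92% in the WT naive and 45.4% in the KO intermediate library. No barcode of an epithelial cell occurred in another library.

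Depth and Ttr level varied widely among the cells. They had a median of 2304 UMIs, ranging from 723 to 60717, and a median of 1135 genes, ranging from 500 to 8600. Among the 111 cells with at least 1000 UMIs, the median was 1185 genes, and it was 616 genes after each cell had been thinned to 1000 UMIs. Ttr took a median of 1511 per 10,000 UMIs, with quartiles of 858 and 2229 and a maximum of 3948. Just inside the threshold lay cells at 302.6, 316.4 and 337.8 per 10,000, and just outside it cells at 299.2, 289.5 and 282.8 per 10,000. Of the 120 cells, 42 lay between 300 and 1000 per 10,000, and 17 further cells with enough markers lay between 100 and 300 per 10,000. Across the 120 cells, depth and Ttr level were almost unrelated (Pearson's r between log10 UMIs and Ttr 0.00846, Spearman's rho 0.123). The cells share 7 libraries and their depths, so this is a description. The 6 deepest cells had a median of 893 Ttr per 10,000 UMIs, against 1611 for the 114 others. Ttr and Enpp2, which encodes the lysophosphatidic acid-producing enzyme autotaxin, rose and fell together over the 120 cells (r = 0.710, rho = 0.761), and both were used by the rule.

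**Figure D1:**
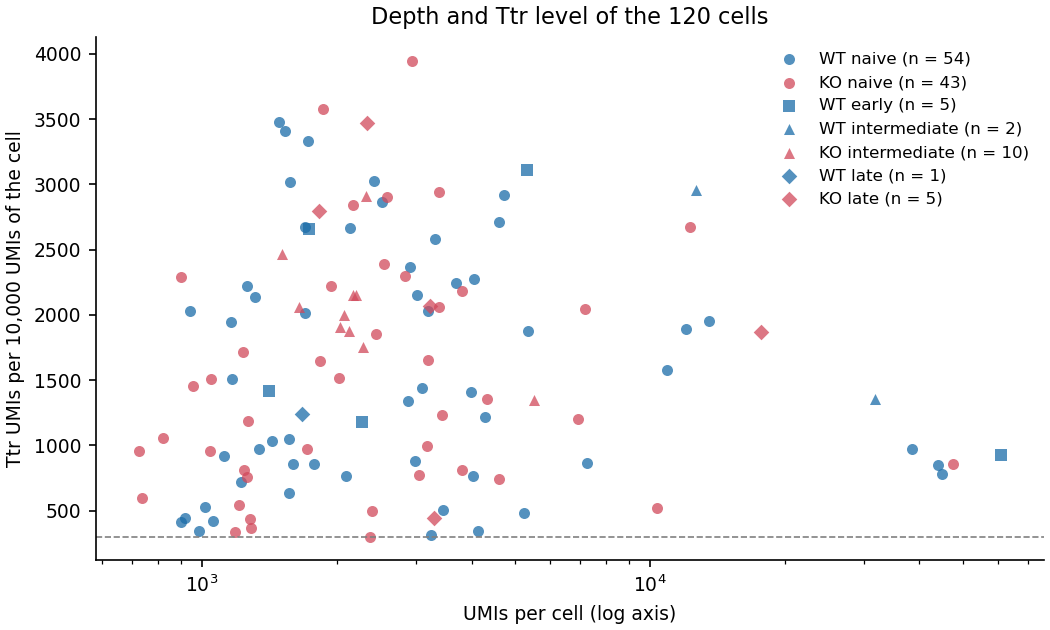
Each point is 1 of the 120 cells, with its UMIs on a log axis and its Ttr UMIs per 10,000 on a linear axis; colour gives the genotype, the shape gives the stage, and the dashed line marks the threshold of 300. The 6 cells above 20,000 UMIs lie between 780 and 1358 Ttr per 10,000, within the range of the shallower cells.

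The deepest epithelial barcode stood in the WT early library, with 60717 UMIs and 8600 genes. It alone held 85.0% of the UMIs of the 5 epithelial cells there. The next 4 barcodes, of 38520 to 47469 UMIs, were the 3 deepest of the WT naive library and the deepest of the KO naive library, and the 6th, with 31754 UMIs, held 71.5% of the epithelial UMIs of the WT intermediate library. In the KO late library, 1 barcode of 17724 UMIs held 62.4%. The KO intermediate library had no such cell, but 5 of its 10 epithelial barcodes were linked to each other, at 1644 to 2174 UMIs and 1880 to 2153 Ttr per 10,000, which leaves 6 units there. The barcode of 60717 UMIs was itself linked to one of 5324 UMIs, which leaves 4 units in the WT early library.

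Clustering of all cells, in which the genes of the rule took part and led the cluster, put 112 of the 120 cells into 1 cluster of 122 cells. The other 8, of which 2 came from the WT naive and 6 from the KO naive library, fell into an astrocyte cluster (5 cells) and a microglia cluster (3 cells), and they count as epithelial cells here unless said otherwise. Among genes that the rule did not use, Otx2, a homeodomain factor needed for choroid plexus formation, had 310 UMIs in 75 of the 120 cells, and Msx1, a roof plate factor, 288 UMIs in 72 cells. Folr1, the folate receptor that carries folate into the CSF, had 549 UMIs in 81 cells. Lmx1a had 17 UMIs in 14 cells. The Hox genes of the hindbrain, Hoxa2, Hoxb3, Hoxb4, Hoxa5, Hoxb5 and Hoxd3, had no UMI in any of the cells, nor did the forebrain factor Pax6. At this depth a count of 0 does not show that a factor is absent.

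Markers of other cell types were rare in these cells. Of the 8 microglial markers, all were detected, with 139 UMIs or 0.0224% of the cells' UMIs, against 2.20% in the microglia themselves. The 8 astrocyte markers made up 0.0409% and the 8 oligodendrocyte markers 0.0451%, against 3.005% and 9.36% in their own classes. The highest share of 1 such list in 1 cell was 1.90%, for astrocyte markers, and in 4 cells the other lists together exceeded 2% of UMIs. Only 2 of 8 macrophage markers and 1 of 8 lymphocyte markers were detected, with 5 UMIs and 1 UMI, and Ms4a7, Mrc1, Arg1, Cd3e, Cd3g and Cd79a were at 0. Of the tumour markers, 2 of 6 were detected with 35 UMIs, of which 33 lay in the 2 cells of the WT intermediate library.

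A set of ion channels, transporters and secreted proteins was nearly restricted to the epithelial cells. Among the 1004 genes with at least 100 UMIs in these cells, 34 were at least 5-fold above every other cluster. Potassium channel subunits led: Kcne2, whose protein joins KCNQ1 in the apical membrane, stood at 5.65 per 10,000 UMIs in the epithelial cells and 0.0263 in the next cluster, which rests on 3 UMIs there (ratio 215, exact binomial 95% interval 72.9 to 1046, counting error only). Kcnj13, an inward rectifier used by the rule, stood at 16.3 per 10,000. Other leading genes were Defb11, a beta-defensin, at 2.83 per 10,000, Tmem72, a transmembrane protein, at 5.02, and the tight junction gene Cldn2, whose claudin forms a paracellular pore for cations and water, at 1.95. Car12, a membrane-bound carbonic anhydrase, stood at 3.91 and 30.4-fold above the next cluster (12.9 to 94.5). F5, coagulation factor V, stood at 7.59 and 33.0-fold above the next cluster (17.3 to 72.7). Htr2c, the serotonin receptor long known from this epithelium, stood at 4.40 per 10,000 and Clic6, an intracellular chloride channel, at 6.64. Cox8b, the muscle-type form of cytochrome c oxidase subunit 8, was also among them, with 310 UMIs in 48 cells, at 4.99 per 10,000 and 38.6-fold above the next cluster (13.1 to 188). Since the cells were chosen by their expression, none of these ratios was tested. Without the 6 cells above 20,000 UMIs, 21 genes reached the same ratio among those with at least 100 UMIs, and 21 of the 30 leading genes stayed among the 30.

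**Figure D2:**
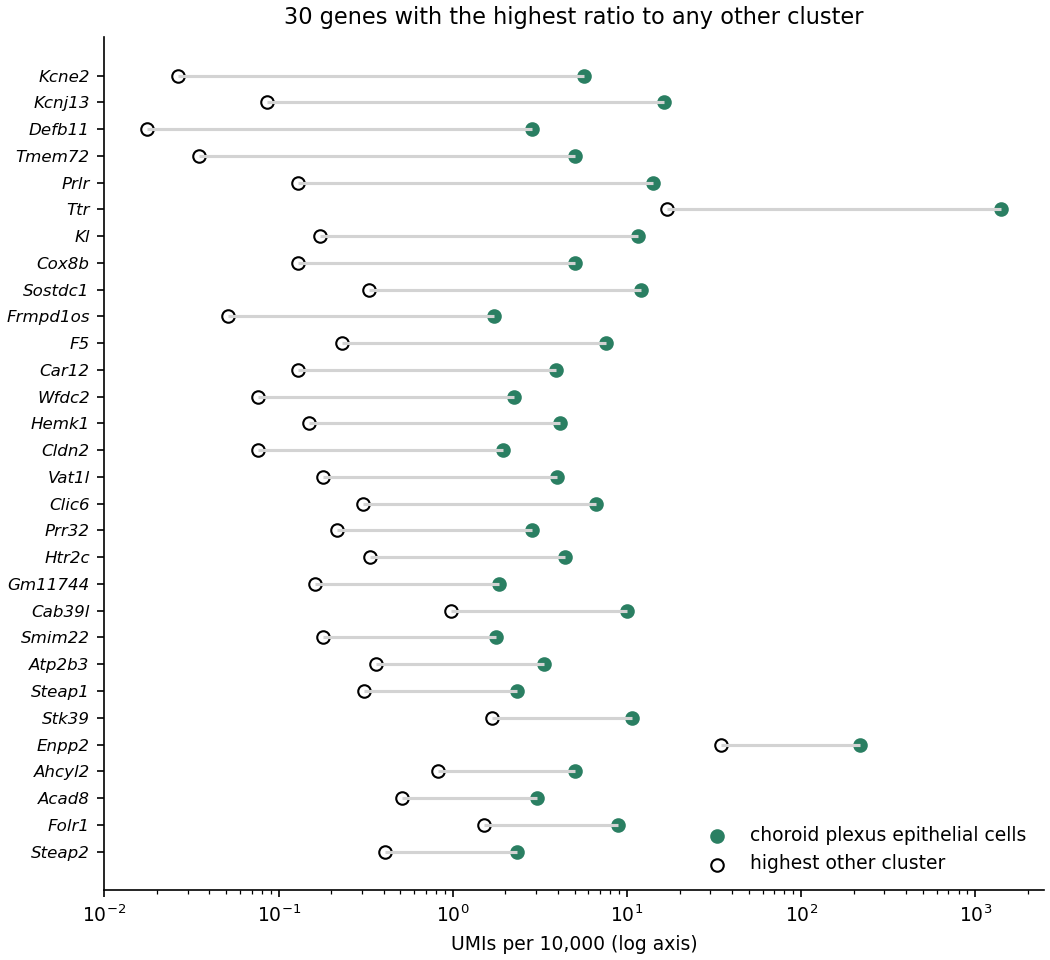
For each of the 30 genes with the highest ratio, the filled point gives UMIs per 10,000 summed over the 120 epithelial cells and the open point the highest of the other clusters, on a log axis. Ttr lies at 1402 against 16.8 and Enpp2 at 217 against 34.8, where the next cluster is of oligodendrocytes.

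Genes for secreted carriers and for ion transport were prominent. The 20 genes for carrier and secreted proteins made up 1809 of every 10,000 UMIs, most of it Ttr. Beside it stood Enpp2 (217), Apoe (37.9), Cst3 (32.3), Clu (21.5), Ptgds (15.9), which encodes prostaglandin D synthase, and Igf2 (15.3), a growth factor released into the CSF, all in UMIs per 10,000. Igf2 varied between cells from 0 to 57.9 per 10,000 with a median of 9.78 and had a UMI in 104 of 120 cells. Of 24 genes for ion and water transport, 23 were detected, Cftr being the one without a UMI. Atp1b1, the beta subunit of the sodium-potassium pump, stood at 22.8 per 10,000. Slc12a2, the sodium-potassium-chloride cotransporter NKCC1, stood at 6.94, Slc4a10, a sodium-bicarbonate transporter, at 4.28, Car2, a cytosolic carbonic anhydrase, at 14.1 and Stk39, a kinase that acts on NKCC1, at 10.7. Aqp1, the water channel of this epithelium, had 48 UMIs in 20 cells. For thyroid hormone and retinoids, Slco1c1, a thyroxine transporter, stood at 5.33 and Rdh5, a retinol dehydrogenase, at 4.32 per 10,000. Values of 3′ UMIs count molecules and carry no length term, yet capture differs between transcripts. The order of the values of different genes is therefore not read as an order of expression.

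Next to these cells, the ciliated ependyma of the ventricle wall formed a cluster of its own with 69 cells, 55 of them from naive brains. All 22 genes for motile cilia with at least 10 UMIs in the epithelial cells were lower there than in the ependyma, with sums of 25.8 and 142 per 10,000 and medians of 1.24 and 5.35. They were present nonetheless: Foxj1, the master regulator of motile cilia, had 93 UMIs in 39 epithelial cells (1.498 against 7.43 per 10,000), Rsph1, a radial spoke protein, 212 UMIs in 71 cells (3.41 against 16.02), and Ccdc39, which sets the axonemal repeat, 139 UMIs in 38 cells (2.24 against 10.3). Ccdc153 and Tmem212, which mark the ependyma, had 1 UMI each in the epithelial cells, at 0.0161 per 10,000, and stood at 30.5 and 17.2 in the ependyma. In the opposite direction, all 54 nuclear genes for oxidative phosphorylation were higher in the epithelial cells, with sums of 419 and 121 per 10,000, among them Cox4i1 (24.8 against 7.91) and Ndufa4 (18.0 against 2.65). Metallothioneins Mt1 and Mt2, which bind zinc and copper, stood at 3.35 and 0.741 against 40.6 and 16.6. Both cell groups come from the same libraries and were formed from these values, so the contrasts are given without a test.

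**Figure D3:**
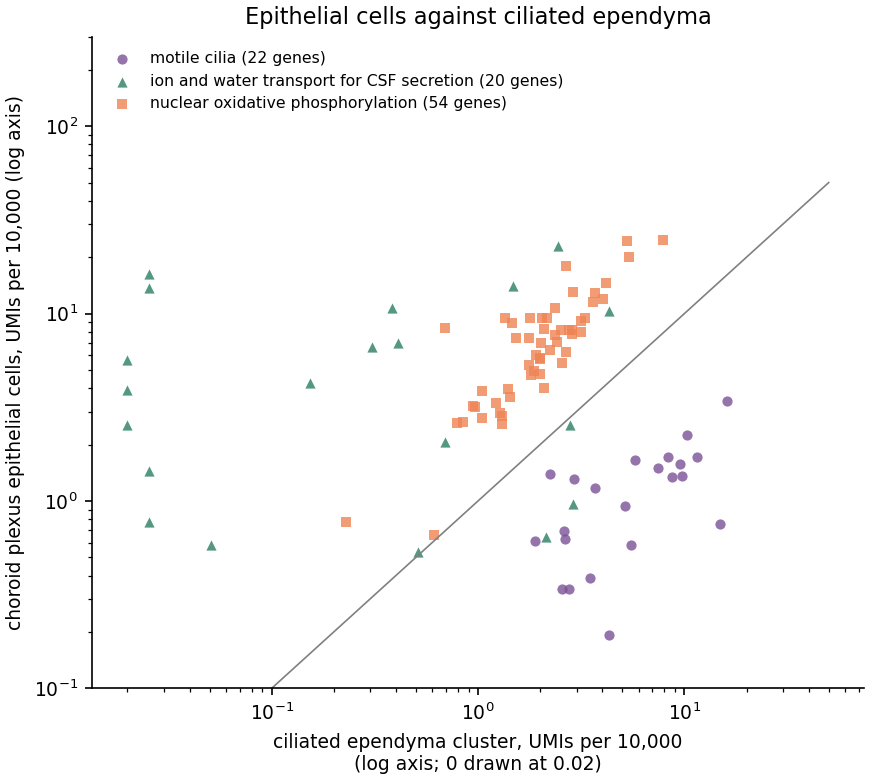
Each point is a gene of 1 of 3 lists, with its UMIs per 10,000 in the 69 ciliated ependymal cells and in the 120 epithelial cells, both on log axes; the line marks equal levels. The 22 cilia genes lie below the line, the 54 oxidative phosphorylation genes above it, and 17 of 20 genes for ion and water transport above it.

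Ttr was also found outside these cells. In the naive libraries, 62.5% of the 922 other cells of WT and 79.0% of the 849 of KO had at least 1 Ttr UMI, at 8.17 and 20.0 per 10,000 of their pooled UMIs. In the tumour-bearing libraries with epithelial cells, 16.2% to 33.4% of other cells had one, at 0.315 to 1.67 per 10,000, and in the KO early library, where no epithelial cell was found, 2.10%, at 0.0493 per 10,000. Within naive brains the share ranged over the 7 classes from 66.2% in neurons to 80.4% in mural cells or fibroblasts, at median depths of 1369 to 3599 UMIs. Pooled levels differed more, from 3.30 per 10,000 in the ependyma to 21.2 in astrocytes. The other cells of all libraries include 9 with at least 300 Ttr per 10,000 UMIs but fewer than 2 of the markers. Free RNA in the suspension can give UMIs in cells that do not express a gene, and its part in these values was not tested.

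The share of epithelial cells was 5.53% in the WT naive library (54 of 976 cells, exact Clopper-Pearson 95% interval 4.18 to 7.16) and 4.82% in the KO naive library (43 of 892, 3.51 to 6.44). It was 0.501% in WT early (5 of 998, 0.163 to 1.17), 0.2% in WT intermediate (2 of 1000, 0.0242 to 0.721), 1.0% in KO intermediate (10 of 1000, 0.481 to 1.83), 0.1% in WT late (1 of 998, 0.00254 to 0.557) and 0.501% in KO late (5 of 998, 0.163 to 1.17). In KO early, 0 of 999 cells met the rule, which allows a share of up to 0.300% (3 counts), with an exact upper bound of 0.369%. Intervals cover counting error only, and linked barcodes make them too narrow. Every tumour-bearing library lay below both naive libraries, with means of 0.384% ± 0.366 (SD, n = 6) and 5.18% ± 0.504 (SD, n = 2). The difference of −4.79 percentage points had p = 0.0714 in a two-sided exact permutation test over the 8 libraries, the smallest p this design can give. Tumour cells are part of the denominator in these libraries. Among cells outside the tumour clusters, the shares were 5.55% and 4.83% in WT and KO naive libraries. They were 0.755% and 0% in early, 2.35% and 2.56% in intermediate and 0.431% and 1.20% in late WT and KO libraries. The difference of the means was −3.97 points, and all 6 tumour-bearing shares were still below both naive ones. Counting error does not secure this order for WT intermediate, with 2 of 85 cells. Its exact 95% interval, 0.286 to 8.24, reaches above both naive shares. KO intermediate had 10 of 390 cells. Its interval, 1.24 to 4.66, lay below both naive shares but overlapped that of KO naive, 3.52 to 6.45. Between KO and WT the share did not move one way: it was lower in KO at the naive and early stages and higher at the intermediate and late stages, with means of 1.58% ± 2.20 (SD, n = 4) in KO and 1.58% ± 2.64 (SD, n = 4) in WT. The mean difference within stage was −0.00309 points (two-sided exact permutation test, p = 1.0, smallest possible 0.125).

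**Figure D4:**
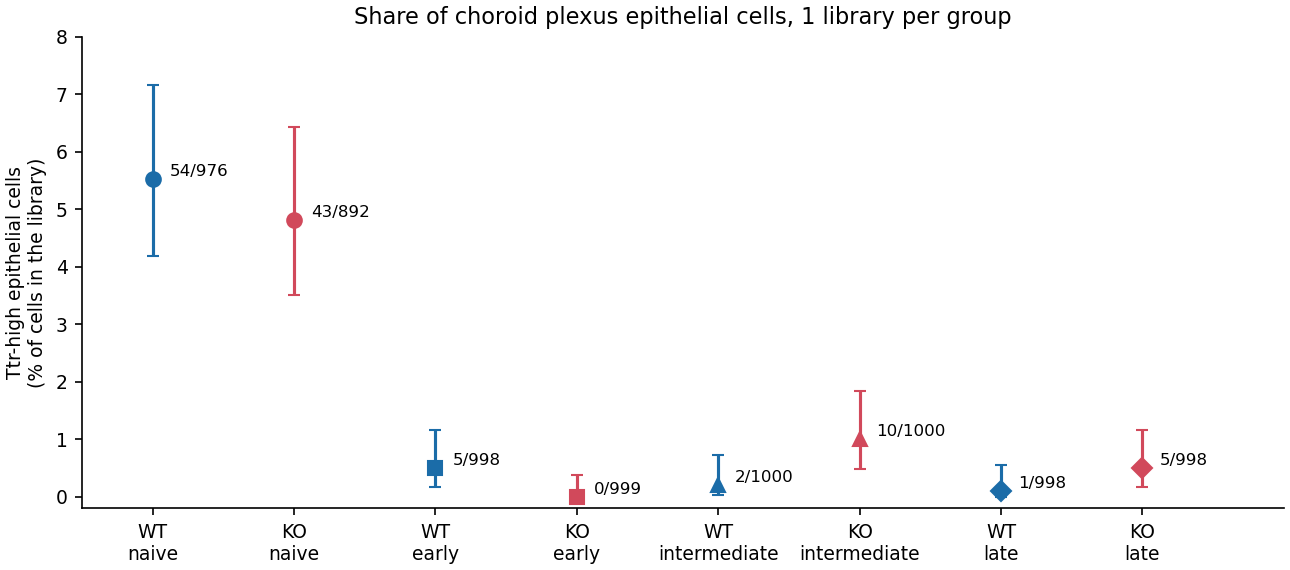
The percentage of cells that met the rule in each of the 8 libraries, with exact 95% binomial intervals and the counts beside each point. Both naive libraries lie above 4%, and the 6 tumour-bearing libraries at or under 1%.

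To ask how the epithelium of tumour-bearing brains differed, UMIs were summed over the epithelial cells of each library and the 5 libraries with at least 5 such cells were tested, WT early, KO intermediate and KO late against WT naive and KO naive, with genotype as a covariate. Some genes of the interferon response, of major histocompatibility complex (MHC) class I and of the immediate early response were higher in the tumour-bearing libraries, and a small set that included Cox8b and mt-Co1 was lower. With edgeR (quasi-likelihood test, p-values adjusted by Benjamini-Hochberg, threshold 0.05), 18 of 1476 genes passed (1.22%), 11 higher (0.745%) and 7 lower (0.474%). The median log2 fold change of all genes tested was 0.01. The test has 2 residual degrees of freedom, to which edgeR added 28.19 prior degrees of freedom from the variance shared over genes. Its p-values thus rest mostly on that shared variance and little on the spread of the single gene. In this test, 120 genes had an unadjusted p under 0.05. DESeq2 called 1 of the 1476 genes, Ifitm3, with 37 at an unadjusted p under 0.05. Over all genes tested, the 3 tumour-bearing libraries lay above both naive ones for 7.38% and below both for 13.3%. Leaving out the WT early library, most of whose UMIs come from the barcode of 60717 UMIs, left 7 calls, of which 1 was higher (Fos).

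**Figure D5:**
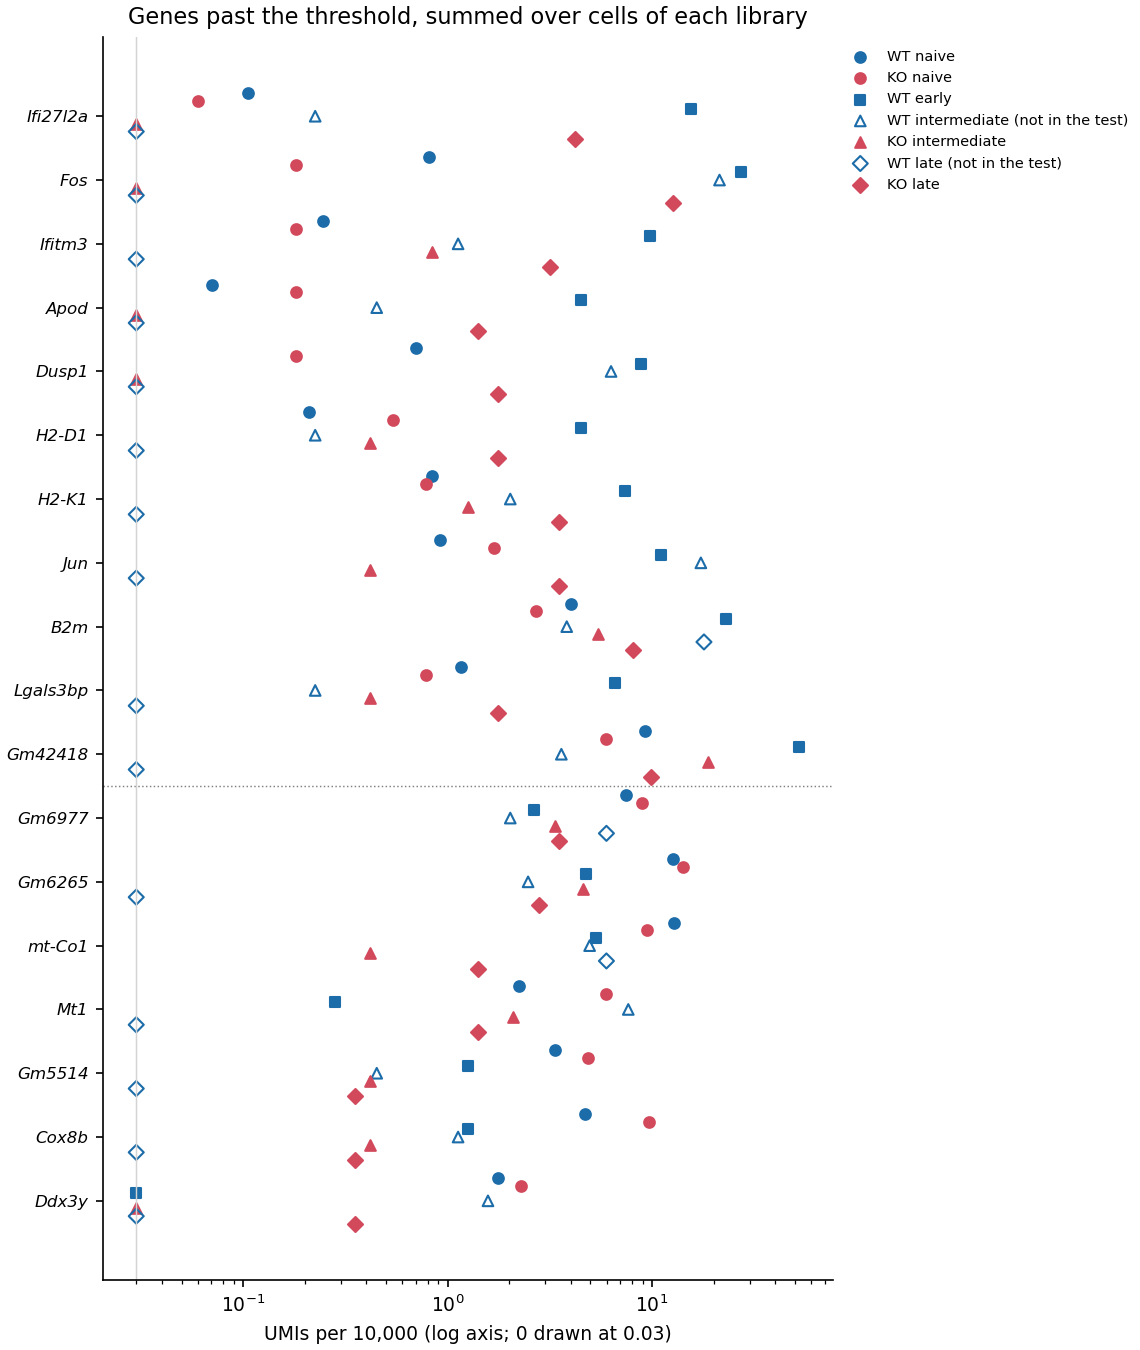
The 18 genes past the threshold, with UMIs per 10,000 summed over the epithelial cells of each library on a log axis and 0 drawn at 0.03; filled symbols are the 5 libraries of the test, open symbols the WT intermediate (2 cells) and WT late (1 cell) libraries outside it. Above the dotted line are the 11 genes with a higher and below it the 7 with a lower fitted level in the tumour-bearing libraries.

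Of the 33 interferon response genes, 5 could be tested, 3 rose (Ifi27l2a, Ifitm3 and Lgals3bp) and none fell. All 5 had a fitted change above 0, with a median log2 change of 1.91. Genes entered the test through a filter on low counts. These 3 genes were highest in WT early and KO late and could enter through those libraries. The filter thus partly fixed the direction and the median of this list, which do not count as support. Ifi27l2a, an interferon-induced mitochondrial protein, stood at 0.105 per 10,000 UMIs in WT naive, 0.0601 in KO naive, 15.5 in WT early, 0 in KO intermediate and 4.22 in KO late. The WT early and KO late values exceeded both naive ones while KO intermediate was at 0, so the groups overlapped (log2 fold change 6.73, SE 0.73, edgeR adjusted p = 3.70e-07). Ifitm3, a membrane protein that blocks virus entry, stood at 0.246 and 0.180 per 10,000 in WT and KO naive, 9.79 in WT early, 0.837 in KO intermediate and 3.17 in KO late. Its 3 tumour-bearing values all lay above the naive ones (log2 fold change 4.81, SE 0.57, edgeR adjusted p = 1.45e-06). Lgals3bp, a secreted galectin-binding glycoprotein, stood at 1.16 and 0.782 in naive and 6.58, 0.418 and 1.76 in tumour-bearing libraries and overlapped, since KO intermediate lay below both naive values (log2 fold change 1.91, SE 0.49). Leaving out any of the 5 libraries lost its call, and without WT early the log2 fold change was 0.32. Ifi27, the member with most UMIs (602), did not pass. It stood at 7.90 and 9.56 per 10,000 in naive and 13.6, 9.62 and 21.8 in tumour-bearing libraries. Ifit1, Ifit3, Mx1 and Oas1a, which are also interferon-induced, had no UMI.

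Among MHC class I genes, calls were also upward. Of 17 genes, 4 were tested and 3 rose, B2m, H2-K1 and H2-D1, with none falling and a median log2 change of 2.29. H2-K1 and H2-D1 could also pass the filter on low counts through WT early and KO late, which partly fixed this direction and median. B2m, the invariant light chain, was read in 59 of the 120 cells, more than any other gene of the 3 lists that rose apart from Ifi27. It stood at 4.004 and 2.71 per 10,000 in WT and KO naive and at 23.1 in WT early, 5.44 in KO intermediate and 8.09 in KO late, without overlap (log2 fold change 2.00, SE 0.37, edgeR adjusted p = 0.00126). H2-K1, a heavy chain, stood at 0.843 and 0.782 in naive and 7.42, 1.26 and 3.52 in the 3 tumour-bearing libraries, also without overlap (log2 fold change 2.58, SE 0.47, edgeR adjusted p = 0.00126). H2-D1, the other classical heavy chain, passed with a log2 fold change of 2.91 (SE 0.70) but overlapped, at 0.211 and 0.541 in naive and 0.418 in KO intermediate, and its log2 fold change was 0.82 without WT early and 0.98 without WT naive, with the call lost in both. Psme1, a subunit of the proteasome activator, was tested and did not pass. MHC class II had 25 UMIs over all 120 cells, and none of its 7 genes reached the test. Its summed level was 0.105 and 0.120 per 10,000 in WT and KO naive and 1.12 in WT early, 0.225 in WT intermediate, 0.837 in KO intermediate, 5.98 in WT late (1 UMI) and 2.82 in KO late.

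Much of the signal of these genes lay in 1 barcode, and the same genes were more abundant in other cells of the tumour-bearing libraries than in those of the naive ones. In the WT early library 109 of 111 Ifi27l2a UMIs, 66 of 70 Ifitm3 UMIs, 156 of 165 B2m UMIs and 52 of 53 H2-K1 UMIs came from the barcode of 60717 UMIs. The other 4 WT early cells together had 10752 UMIs and stood at 1.86 per 10,000 for Ifi27l2a, 3.72 for Ifitm3, 8.37 for B2m and 0.930 for H2-K1. Without the WT early library the log2 fold changes were 4.76 for Ifi27l2a, 3.22 for Ifitm3, 1.12 for B2m and 1.43 for H2-K1, and none of the 4 passed. Cells other than the epithelium had 6.15 Ifi27l2a, 8.86 Ifitm3, 76.2 B2m and 27.9 H2-K1 per 10,000 in the WT early library and 0.300, 2.28, 15.3 and 3.46 in WT naive. Their part in the epithelial values, as free RNA, was not tested. Macrophage markers in the epithelial cells of the tumour-bearing libraries summed to 0 to 0.352 per 10,000 per library and microglial markers to 0 to 1.12. In the WT intermediate library, outside the test, the 2 epithelial cells had 0.225 Ifi27l2a, 1.13 Ifitm3, 3.83 B2m and 2.03 H2-K1 per 10,000.

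Immediate early genes, which are switched on within minutes of a stimulus, formed the third group. Of 24 genes, 6 were tested, Fos, Jun and Dusp1 rose, none fell, and all 6 had a fitted change above 0 (median log2 change 2.38). Fos and Dusp1 were low in both naive libraries and could pass the filter on low counts through WT early and KO late. The direction and median of this list were thus partly fixed by the filter. Fos stood at 0.808 and 0.180 per 10,000 in WT and KO naive, 27.1 in WT early, 0 in KO intermediate and 12.7 in KO late (log2 fold change 5.14, SE 0.62, edgeR adjusted p = 1.45e-06). Jun, its partner in the AP-1 complex, stood at 0.913 and 1.68 in naive and 11.1, 0.418 and 3.52 in the tumour-bearing libraries. Dusp1, a phosphatase that ends MAP kinase signalling, stood at 0.702 and 0.180 in naive and 8.82, 0 and 1.76 in the tumour-bearing libraries. All 3 genes were lowest or at 0 in KO intermediate, so each overlapped with the naive group. The 2 WT intermediate cells outside the test were high as well, with 21.4 Fos, 17.3 Jun and 6.30 Dusp1 per 10,000. Few cells carried these UMIs: Fos was read in 14 of the 120 cells, 2 of 5 in WT early, 3 of 5 in KO late and 0 of 10 in KO intermediate. In the 4 shallower WT early cells Fos stood at 21.4 per 10,000, from 23 UMIs that all lay in 1 cell. Ifi27l2a at 1.86 and Ifitm3 at 3.72 in these 4 cells were above both naive libraries as well. Without the WT early library Fos passed (log2 fold change 4.90), while Ifi27l2a, Ifitm3 and Lgals3bp did not. Fos also passed without all barcodes above 20,000 UMIs (4.37). In that setting Ifi27l2a, Ifitm3, Lgals3bp and Dusp1 did not reach the test, so they cannot be compared with Fos there. Fos lost the call with DESeq2 (log2 fold change 5.17) and with no covariate (4.77). Without KO late it did not reach the test. Jun and Dusp1 had log2 fold changes of 0.08 and 2.08 without WT early and of 0.23 and 2.21 without WT naive. Jun stood at 1.17 without the barcodes above 20,000 UMIs. None of these values of Jun and Dusp1 passed the threshold. With at least 10 cells per library, which left KO intermediate as the only tumour-bearing library, and no covariate, all 3 genes reversed. Their log2 fold changes were −6.11 for Fos, −5.94 for Dusp1 and −1.72 for Jun.

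Of the genes that were lower, Cox8b had the largest change among those on autosomes. It stood at 4.71 per 10,000 in WT naive and 9.62 in KO naive, and at 1.26 in WT early, 0.418 in KO intermediate and 0.352 in KO late, without overlap (log2 fold change −2.90, SE 0.49, edgeR adjusted p = 4.29e-04). The WT intermediate cells, outside the test, had 1.13 per 10,000. Cox8b was near absent from other cells, at 0.0399 and 0.0538 per 10,000 in naive and at 0 to 0.00379 in tumour-bearing libraries. It lost the call with DESeq2, without the KO naive library (log2 fold change −1.78), without the KO intermediate library (−2.60) and with Ttr of at least 1000 per 10,000 and no covariate (−3.61). Of the 54 nuclear oxidative phosphorylation genes, 52 were tested and none passed. Their fitted changes were below 0 for 38 genes and above 0 for 14, with a median of −0.16, against 51.0% above 0 over all genes tested. The mitochondrially encoded genes had 1 call among 9 tested, mt-Co1, the catalytic subunit of the same enzyme, at 12.8 and 9.50 per 10,000 in naive and 5.32, 0.418 and 1.41 in tumour-bearing libraries (log2 fold change −1.94, SE 0.40, edgeR adjusted p = 0.00598). In cells other than the epithelium mt-Co1 was lower as well, at 8.12 and 9.96 per 10,000 in naive and 1.34 to 2.52 in tumour-bearing libraries with epithelial cells. The call of mt-Co1 was lost with DESeq2 (log2 fold change −2.19), with no covariate (−1.83), without KO naive (−1.15) and without KO intermediate (−1.59). In the test of the 5 libraries the other 8 did not pass, 8 of the 9 were fitted below 0, and the list median was −0.29. Mt1 fell as well, at 2.25 and 5.95 in naive and 0.280, 2.09 and 1.41 in tumour-bearing libraries (log2 fold change −2.09, SE 0.49, edgeR adjusted p = 0.0178), but stood at 7.65 in the WT intermediate cells. It lost the call with each of the 5 libraries left out, and with the WT intermediate library added the log2 fold change was −0.33. In cells other than the epithelium Mt1 stood at 20.5 and 21.6 per 10,000 in naive and at 7.41 to 18.3 in tumour-bearing libraries.

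The remaining calls need care in reading. Ddx3y lies on the Y chromosome and had 50 and 38 UMIs in the WT and KO naive cells, 0 in WT early and KO intermediate and 1 in KO late. Of the 3 tumour-bearing libraries of the test, 2 came from female mice. The sex of the naive mice is not given in the sources used here. In cells other than the epithelium, Ddx3y had 265 and 196 UMIs in WT and KO naive and Xist 0 in both, the pattern of male cells. Sex therefore cannot be told apart from tumour for Ddx3y, and it is partly mixed with tumour for every gene of the test. Gm5514 and Gm6977 are annotated as processed pseudogenes and Gm6265 is a predicted gene, whose UMIs can come from near-identical copies, and all 3 were lower. Gm42418, a noncoding RNA, was higher, with 370 of its 376 WT early UMIs in the deepest barcode. Apod, a lipocalin, passed with 43 UMIs in 9 cells.

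The lists that define the work of the epithelium had no call between tumour-bearing and naive libraries except for Apod. Of 24 ion and water transport genes, 13 that the rule did not use were tested, none passed, and the median log2 change was 0.23. Slc12a2 stood at 7.41 and 3.01 per 10,000 in naive and 7.70, 5.86 and 11.97 in tumour-bearing libraries. Among the carrier and secreted proteins, 10 outside the rule were tested, 1 rose (Apod) and none fell, with a median of −0.02. Igf2 stood at 16.5 and 11.1 in naive and 22.9, 24.3 and 12.7 in tumour-bearing libraries. None passed among 12 tested cilia genes (median 0.02), 8 chaperone and stress genes (median 0.13), 5 genes of BMP and Wnt signalling (median 1.21), 4 solute carriers for nutrients and vitamins, 4 genes for retinoid and thyroid hormone handling, 3 tight junction genes, 3 transcription factors, 1 receptor (Htr2c) and 1 complement gene. Of the 3 acute phase genes tested, Mt1 fell and none rose. Mt1 was also the 1 gene to fall of 6 tested for metal handling. A miss of the threshold with 5 libraries does not show that these levels were equal. Serpina3n, an acute phase serpin, had all of its 17 UMIs in 1 WT intermediate cell, and Cxcl1, a neutrophil chemokine, all of its 13 in 1 WT early cell.

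Sequences upstream of 4 of these genes are shown because these genes passed the test: B2m and H2-K1 of MHC class I, Dusp1 of the immediate early genes and Cox8b of the genes that were lower. Each is the 250 bases before the RefSeq start of the gene in GRCm38.p6, 5′ to 3′ on the strand of the gene. A pair of motifs was searched on both strands: GAAA followed by any 2 bases and GAAA again, the core of the interferon-stimulated response element, and TGACGTCA, the cyclic AMP response element, which do not overlap here, and capitals mark a match.
B2m (chr2:122147437-122147686, plus strand): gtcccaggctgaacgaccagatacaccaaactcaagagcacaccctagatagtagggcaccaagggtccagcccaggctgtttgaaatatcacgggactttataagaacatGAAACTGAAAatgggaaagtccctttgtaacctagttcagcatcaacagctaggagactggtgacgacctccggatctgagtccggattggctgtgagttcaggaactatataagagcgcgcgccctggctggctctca
H2-K1 (chr17:34000348-34000597, minus strand): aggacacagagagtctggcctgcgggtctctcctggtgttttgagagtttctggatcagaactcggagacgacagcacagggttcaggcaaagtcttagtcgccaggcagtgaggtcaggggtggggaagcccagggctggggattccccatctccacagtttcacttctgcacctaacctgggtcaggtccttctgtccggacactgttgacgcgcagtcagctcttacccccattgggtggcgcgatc
Dusp1 (chr17:26508473-26508722, minus strand): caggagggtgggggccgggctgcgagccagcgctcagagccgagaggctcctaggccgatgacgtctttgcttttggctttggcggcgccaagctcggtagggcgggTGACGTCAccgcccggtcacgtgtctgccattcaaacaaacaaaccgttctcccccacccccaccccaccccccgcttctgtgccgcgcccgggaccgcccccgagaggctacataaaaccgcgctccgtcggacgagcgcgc
Cox8b (chr7:140900447-140900696, minus strand): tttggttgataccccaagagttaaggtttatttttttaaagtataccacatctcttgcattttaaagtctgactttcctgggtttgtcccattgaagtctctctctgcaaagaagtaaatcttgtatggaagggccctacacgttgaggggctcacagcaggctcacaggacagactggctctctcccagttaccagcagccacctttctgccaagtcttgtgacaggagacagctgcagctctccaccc
The first motif lay in 2.98% of the 32851 promoters of the same length and in 1 of the 12 called genes with a promoter entry, B2m. The second lay in 1.55% of all promoters and in 1 of the 12, Dusp1. A match is a description of these letters and does not show that a factor bound there, and no match says nothing of the factor.

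The comparison of KO with WT epithelial cells left no residual degree of freedom with stage as a block, since only the naive stage had at least 5 such cells in both genotypes. With tumour-bearing or naive as the covariate in its place, edgeR called 1 of 1476 genes (0.0678%), Dusp1, with a log2 fold change of −2.81 (SE 0.56, edgeR adjusted p = 0.0361) in KO. Its highest level in the libraries of that fit was 8.82 per 10,000 in WT early, where all 63 UMIs came from the deepest barcode, and without a covariate no gene passed, with 67 at an unadjusted p under 0.05. With libraries of at least 2 epithelial cells, stage could be the block, with 1 residual degree of freedom and both genotypes at the naive and intermediate stages, and 4 of 1909 genes (0.21%) passed, all lower in KO: Col3a1, Fos, Gpnmb and Mgp. Dusp1 was not among them. Of these genes, the 2 WT intermediate cells held 51 of 52 Col3a1 UMIs, 41 of 42 Gpnmb UMIs and 109 of 121 Mgp UMIs. The same 2 cells held 33 of the 35 UMIs of tumour markers, whose part in these values was not tested.

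Between the 2 naive libraries, values are given side by side with no test, 1 library each. Of 1602 genes with at least 50 UMIs in both together, 18 (1.12%) were at least 2-fold higher in KO naive and 59 (3.68%) at least 2-fold lower. Among the 10 largest ratios in KO were 3 genes known from astrocytes: Sparcl1, a secreted matrix protein, at 4.57 against 1.23 per 10,000 (log2 ratio 1.89, exact binomial 95% interval 1.30 to 2.52, counting error only), Slc1a2, the astrocyte glutamate transporter, at 3.13 against 0.913, and Aldoc, a glycolytic aldolase, at 3.37 against 1.09. Of the 76 Sparcl1 UMIs in KO naive, 43 lay in the 6 epithelial cells outside the Ttr-led cluster. Oligodendrocyte markers in the epithelial cells summed to 9.98 per 10,000 in KO naive and 1.55 in WT naive, and astrocyte markers to 9.38 and 2.70. Mt1 was also higher in KO naive, at 5.95 against 2.25 (log2 ratio 1.41, 0.94 to 1.88). The 10 lowest ratios included Phf3, a PHD finger protein, at 0.541 against 2.14 per 10,000 (log2 ratio −1.98, −3.18 to −0.97), Bst2, the interferon-induced protein tetherin, at 0.481 against 1.62 (−1.75, −3.04 to −0.65), and Adamts1, a secreted protease, at 0.481 against 1.51. The barcodes above 20,000 UMIs held 44.8% of the epithelial UMIs in WT naive and 28.5% in KO naive. Without them, 19 genes were at least 2-fold higher and 21 at least 2-fold lower in KO, and none of the 10 lowest ratios was among the 10 lowest again.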

How the data were processed

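Drop-seq count tables of 8 libraries were used as deposited. Per the labels and the study's methods, the authors made these UMI counts per gene and barcode with the Drop-seq pipeline and STAR on GRCm38 (mm10), after bcl2fastq 2.0, and the gene annotation is not given in the sources used here. The values are raw counts. Groups came from the labels. The 1000 barcodes with most UMIs per library and at least 500 genes were kept, and doublets were not called, since cells with markers of 2 classes were counted instead. The rule for the epithelial cells, the gene lists and the markers were chosen with earlier results of these data known. All cells were clustered with scanpy 1.11.5 (2000 variable genes, 50 components, Leiden at resolution 1.0), and clusters were named from the fixed markers. UMIs were summed per library over the epithelial cells and tested with edgeR 4.0.16 (TMM, filterByExpr, genotype and tumour as terms) at an adjusted p under 0.05. The SE is the fitted log2 fold change over the square root of its F statistic. The step was tested on simulated data. Per 10,000 values are sums over cells divided by their total UMIs. The text names list genes with at least 10 UMIs, the 10 largest changes each way past the threshold, the 10 largest ratios each way between single libraries among genes with at least 50 UMIs, and the 30 leading genes. Ratios against a cluster with few UMIs carry exact binomial intervals. Promoters are from RefSeq. Alternatives included DESeq2 1.42.0, library sizes only, no filter, other thresholds and each library left out. Some were added after the data were seen: leaving out barcodes above 20,000 UMIs, counting linked barcodes once, thinning, and the fits with fewer or more cells per library. Some genes named by these rules are not reported here.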

Additional observations from a re-analysis of the deposited data

Results flagged for a closer look

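Gm5514, a processed pseudogene, stood at 1.26 UMIs per 10,000 in the WT early epithelial cells, apart from 0.352 to 0.450 in the 3 other tumour-bearing libraries with at least 2 such cells. It was the 1 case in 20 groups of values examined for a sample far from the others, and chance gives about 1 in 20. In the WT intermediate library, whose 2 epithelial cells were outside the test, Fos reached 21.4, Jun 17.3, Dusp1 6.30, H2-K1 2.03 and Ifitm3 1.13 per 10,000, each more than 2-fold above both naive libraries. Of the other genes called higher, Ifi27l2a at 0.225 and Apod at 0.450 also lay above both naive libraries. B2m at 3.83 and H2-D1 at 0.225 lay between the naive values, and Lgals3bp at 0.225 and Gm42418 at 3.60 below both. Among barcodes below the 1000 with most UMIs, 7 more met the rule for epithelial cells, 3 of them in KO intermediate, 2 in WT naive and 1 each in WT early and WT intermediate.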

How the results depend on the processing

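The share of epithelial cells was lower in tumour-bearing than in naive libraries under every alternative run, with differences of −2.69 to −5.59 percentage points, and none could pass 0.05 because of the number of libraries. The count of 18 genes past the threshold became 33 with no filter on low counts, 3 with no covariate and 1 with DESeq2 (37 genes at an unadjusted p under 0.05). It became 5 of 440 testable genes without barcodes above 20,000 UMIs. After thinning each cell to 1000 UMIs it was 0 of 96 testable genes (7 at an unadjusted p under 0.05). Some of the 18 genes dropped out of the test in such settings. Without barcodes above 20,000 UMIs, 4 kept the call, 4 were tested and lost it, and the others were not tested. Without KO late, 8 kept the call, 4 were tested and lost it, and the others were not tested. Leaving out 1 library in turn gave 7 to 14 calls: without WT naive 5 of the 18 remained, without KO naive 9, without WT early 5, without KO intermediate 7 and without KO late 8. Thresholds of at least 10 cells per library, of at least 1000 genes per cell or of Ttr at 1000 left 3 libraries, WT naive, KO naive and KO intermediate, which have no residual degree of freedom with genotype as a covariate. Without the covariate they gave 9, 10 and 7 calls, all lower, and reversed Fos (−6.11, −5.89 and −5.93), Dusp1 (−5.94, −5.63 and −5.45), Jun (−1.72, at 10 cells) and Lgals3bp (−1.42 and −1.27, the first 2 settings). Fos and Dusp1 have 0 UMIs in the KO intermediate epithelial cells. The cause of the other changes was not tested. At least 3 cells per library gives the same 5 libraries. For KO against WT, the call fell from 1 to 0 without a covariate. With libraries of at least 2 epithelial cells and stage as a block it became 4, and no other alternative was run for that comparison. Between the naive libraries, the 77 genes past 2-fold became 40 without barcodes above 20,000 UMIs. The number of genes at least 5-fold above every other cluster was 34, and 21 without those barcodes. No paired analysis was possible because the groups share only 1 replicate number, and KO and WT were compared within stage instead. Depth limits the epithelial cells of the tumour-bearing libraries, which hold 23 cells in all.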
